A study of Arabidopsis thaliana with 4 samples.

Results

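The proximal promoter sites of AGAMOUS (AG) in young Arabidopsis thaliana flowers are described here: the ChIP-seq peaks whose target genes carry a score in the 1000 bp before their 5′ end and in no other region. The authors' deposited target table gives each gene a highest peak score in 5 regions, which are 3 upstream intervals, the gene itself and the first 1000 bp after its 3′ end. Members were thus chosen by their deposited scores: a gene was a member when its score 0-1000 bp upstream was above 0 and its other 4 region scores were 0. The rule gave 603 of 1958 target genes (30.8%). Of these members, 593 matched a gene in the RefSeq annotation and each was linked to exactly 1 peak, which gave 516 distinct peaks, or 36.3% of the 1421 in the authors' list. The other 10 members could not be matched and were described by their scores only.

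Chromatin was immunoprecipitated with an anti-GFP antibody from inflorescences of plants about 4 weeks old. The tagged group, AG-GFP AP1-GR ap1 cal, had 2 libraries, and the negative control, AP1-GR ap1 cal without the tagged protein, also had 2. Both groups were in the Ler-0 background and carried the 35S:AP1-GR transgene with the ap1-1 and cal-1 mutations, so that flower formation began in many meristems together after 10 µM dexamethasone, and tissue was taken 4 days later, at about floral stages 4 to 5. The promoter that drove AG-GFP is not given in the sources used here, and AP1 was supplied by the transgene in both groups. Per the labels, control replicate 1 served a different series as well. No deposited value belongs to a single library, so the scores below carry no replicate error, the depth is unknown, and occupancy in the 2 groups cannot be given side by side.

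AG is a MADS-domain transcription factor that specifies stamens and carpels and ends the activity of the floral meristem. MADS-domain proteins bind DNA as dimers, and in flowers as larger complexes with SEPALLATA partners, at short AT-rich elements called CArG boxes. These elements often lie in the promoter, the stretch just before a gene where RNA polymerase is recruited, but AG and its relatives also occupy introns and distant upstream DNA.

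Among the members were 13 microRNA genes, whose transcripts are processed into short RNAs that repress other genes by base pairing. Their mature sequences, as given in the authors' deposited table, identify the microRNA that each gene encodes, and 8 of them are shown. Capitals mark the seed, bases 2 to 8 from the 5′ end, which contributes strongly to target choice. Letters are those of DNA. The members with a shared seed stand together.
MIR169c: cAGCCAAGgatgacttgccgg
MIR169j: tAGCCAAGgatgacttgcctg
MIR166b: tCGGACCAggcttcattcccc
MIR165a: tCGGACCAggcttcatccccc
MIR159a: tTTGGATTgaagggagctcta
MIR319a: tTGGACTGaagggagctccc
MIR156c: tGACAGAAgagagtgagcaca
MIR160a: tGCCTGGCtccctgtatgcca

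The scores of the proximal sites spanned a wide range. A score is the Poisson score that the authors' deposited list gives to a peak, and it serves only to describe and rank peaks within that list. It also defined the members, so these values are a description without a test. The median member score was 134.67, with quartiles of 78.17 and 272.58, and the scores ran from 38.14 to 5695.79. Scores of at least 1000 were given to 21 members, 374 members lay between 100 and 1000, and 208 (34.5%) lay below 100. The 20 highest members held 25.3% of the summed score. At the lower end, just inside the rule, stood 3 members at 38.14: AT2G26750, an epoxide hydrolase gene, and the neighbouring kinase gene AT3G02810 and zinc knuckle gene AT3G02820, which share 1 peak. Just outside the rule stood target genes with a score of 0 in this interval, and 86 genes with a score here and in another region too, such as AT5G15120 with 41.45 here and 92.65 downstream.

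The proximal scores overlapped widely with those of the other regions. The median peak of the whole list scored 139.67, and 297 members (49.3%) reached it. Genes with a peak only 1000-2000 bp upstream had a median of 144.26, those 2000-3000 bp upstream 148.96, those with a peak only inside the gene 131.07 and those with one only downstream 133.69. Genes with scores in 2 or more regions had a median of 282.76. Theirs is the highest of 2 or more scores, which by itself favours a higher value, so this median is not comparable with the others. Many of these genes share their peaks, so no test between the regions was made. Of the 100 highest peaks in the list, 35 belonged to a member, close to the 36.3% of all 1421 peaks that did. Peak width differed little between single regions: the median was 233 bp over the 516 proximal peaks and between 223 and 242.5 bp for the others. For genes with 2 or more regions only the highest peak was taken, and the median width was 331 bp.

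**Figure D1:**
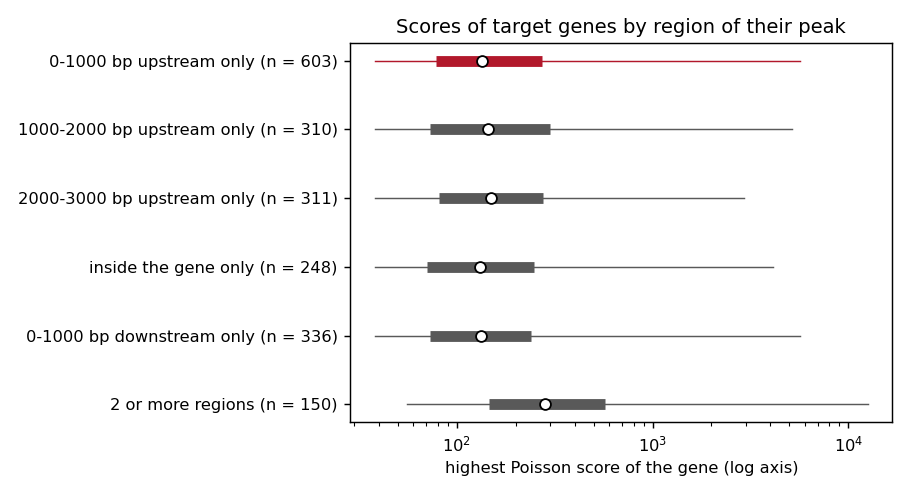
Highest Poisson score per target gene (log axis) for each region of the target table, with the number of genes. Thin lines run from the lowest to the highest gene, thick bars span the quartiles and circles mark medians. The proximal genes (red) have a median of 134.67, close to the other single regions. Genes with 2 or more regions have 282.76, where the highest of several scores was taken.

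MADS-box genes held 4 of the 20 highest proximal scores. Of 101 genes with an AGAMOUS-LIKE name or among 6 other MADS-box genes, 7 (6.93%) were members, against 2.05% of 27444 protein-coding genes (563 members). Presence anywhere in the target table was 23.8% of the MADS-box set (24 genes) and 6.62% of protein-coding genes. Of these 24 MADS-box targets, 7 were members, beside 603 of all 1958 target genes (30.8%), and 11 had scores in 2 or more regions. AP3 and PI, whose proteins form the dimer that specifies petals and stamens, ranked 1 and 5 with scores of 5695.79 and 2459.62. Both peaks lay across the start of the gene as RefSeq draws it, with their positions 74 and 64 bp inside the span. SHP2, a close relative of AG that acts in ovules and the fruit valve margin, scored 1495.24 with its peak 258 bp outside the gene, on chromosome 2 from 17819765 to 17820047 (TAIR10). SEP2, a partner of the organ identity proteins, scored 740.69 with its peak at 686 bp, on chromosome 3 from 467726 to 468011.

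The other 3 MADS-box members have known roles outside organ identity. AGL18 and AGL15, related repressors of flowering that are also active in embryos, scored 1749.39 and 750.09. The AGL18 peak position was 160 bp inside the span, and that of AGL15 was 74 bp outside it, on chromosome 5 from 4450768 to 4451182. AGL44 (also called ANR1), known from the root response to nitrate, scored 68.62. Thus 6 of the 7 reached the median peak score, and AGL44 did not. AG itself was not a member, because its scores were inside the gene (12585.03) and 1000-2000 bp upstream (735.51). Of its other close relatives, SHP1 had a score only inside the gene, 65.95, and STK was not a target gene.

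**Figure D2:**
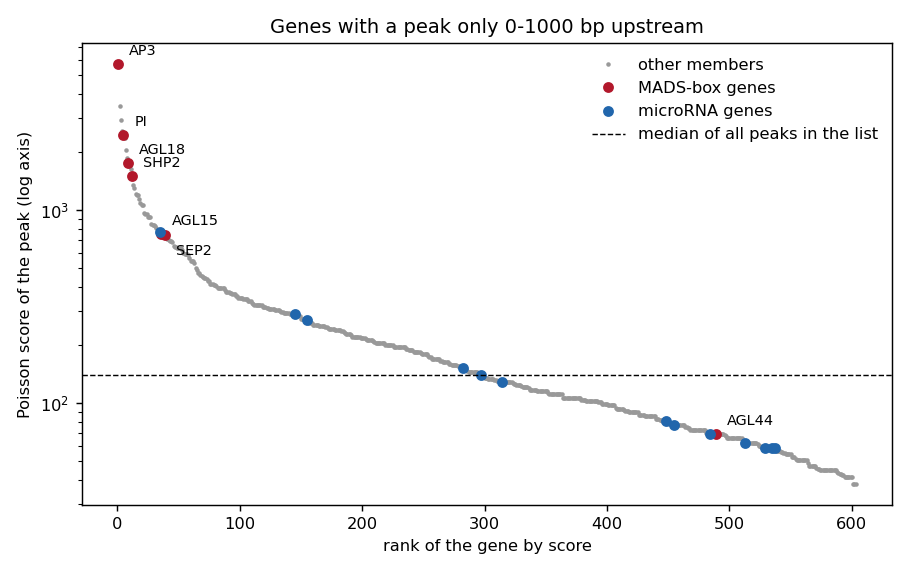
Scores of the 603 members by rank, with the Poisson score on a log axis; red points are the 7 MADS-box genes, blue points the 13 microRNA genes, and the dashed line is the median of all peaks, 139.67. All MADS-box genes but AGL44 lie above the line, while 8 of the microRNA genes lie below it.

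Beyond the MADS-box family, the 20 highest members covered several functions. Transcription factors made up 8 of the 20, and 4 of those were MADS-box genes. The remaining 4 were BBX13, a B-box zinc finger gene, with 2927.42; AT3G10040 with 2363.18; ATH1, a homeobox gene of the shoot meristem that also delays flowering, with 2044.38; and HEC1, a helix-loop-helix gene of the carpel transmitting tract, with 1087.38. AT5G21280, annotated as a hydroxyproline-rich glycoprotein, ranked second with 3446.61, and its peak on chromosome 5 from 7265702 to 7266440 was linked to no other target gene. CCB1, an assembly factor of chloroplast cytochrome, had 2578.0, and ECT6, of the family that reads methylated adenosine in RNA, had 1870.5. KCR1, a reductase of fatty acid elongation, had 1691.62, and RBP47C, an RNA-binding protein gene, had 1628.99. RUP2, a repressor of ultraviolet-B signalling, had 1214.6 and was also alone on its peak.

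The remaining members at the top included genes whose peak was also linked to another target gene, as were the peaks of several genes named above. AT1G69130, a transfer RNA gene with 1351.75, had the widest of all member peaks, 1403 bp on chromosome 1 from 25987723 to 25989125. The same peak lay 2000-3000 bp upstream of AP1, the sepal and petal identity gene. MTO3, an S-adenosylmethionine synthetase gene, and the F-box gene AT3G17400 shared a peak of 1192.19 between them. AT1G10745 (1293.61), AT5G16010 (1136.92) and the farnesol kinase gene FOLK (1064.74) each shared theirs with at least 1 gene of another region. In all, 5 of the 20 highest had a peak linked to no other target gene, a share near that of all linked members, 155 of 593. The low end of the list held regulators as well: NAC032, a NAC transcription factor gene, scored 41.11, and TAS3b, a source of small RNAs against auxin response factors, scored 41.45.

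Members from lists of flower and organ genes were few but spread over several organs. Among 14 lists with 228 genes, 20 (8.77%) were members and 75 were targets in any region. Over all protein-coding genes these shares were 2.05% for members and 6.62% for targets, and no test was made. Among targets alone, 20 of the 75 list genes were members, beside 603 of all 1958 target genes (30.8%). The proximal region thus did not hold a larger part of the list targets than of all targets. The floral organ identity list had 4 of 13, the genes AP3, PI, SEP2 and SHP2 given above. In the list of floral meristem and flowering time, 2 of 24 were members: SUP, which marks the boundary between stamens and carpels, with 365.01 and a peak 937 bp from the gene, and the homeobox gene PNF (BLH8) with 105.6. From the stamen list came 2 of 19, both receptor kinases of anther cell fate, EMS1 with 403.5 and SERK1 with 143.81. The carpel and ovule list had 3 of 19, which were HEC1, the embryo sac gene VDD with 351.68, and the organ boundary gene CUC1 with 58.44.

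The leaf list gave 2 of 27, the upper-side identity gene PHB with 211.27 and BOP2, a gene of the organ base, with 204.08. The trichome list gave 3 of 17. Of these, ETC3 (AT4G01060) with 193.9 and CPC with 110.99 repress trichomes, and GL3 with 44.86 promotes them. Single members came from the lists of auxin (YUC4, a synthesis enzyme, 122.5), cytokinin (ARR7, a response regulator, 272.58), jasmonate (LOX3, 106.31) and cell wall (XTH9, 143.81). No member came from the lists of gibberellin (16 genes), cell cycle (15), photosynthesis (11) or housekeeping (10), sizes at which the background of 2.05% would give few members or none. The gibberellin list did have 5 targets, and all of them had their scores in other regions.

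Several further regulators were named after their values were seen. The CLE family of small peptide ligands had 4 members among 30 genes with that name (13.3%, against the background of 2.05%) and 8 targets in any region. It was picked among many gene names, whose percentages varied widely. For example, HA had 3 of 10 (30.0%), PYL 2 of 11 (18.2%), WRKY 4 of 67 (5.97%) and MYB 4 of 115 (3.48%). No percentage was taken for the pathways and groups named below. The members were CLE42 with 836.04, CLE17 with 634.61, CLE16 with 101.69 and CLE9 with 51.18. Of the abscisic acid pathway, the receptor genes PYL2, PYL1 and RCAR3 had 437.93, 246.07 and 54.43, the kinase gene OST1 617.66 and the transcription factor gene ABF3 85.33. For brassinosteroids, the receptor gene BRL1 had 47.19, the co-receptor gene BAK1 56.21, the signalling kinase genes BSK1 and BSK2 152.42 and 72.68, BEH3, a relative of the terminal transcription factor, 449.57, and the responsive helix-loop-helix gene BEE1 85.33. Genes of meristem, boundary and organ size included LSH1 with 838.79, the homeobox-related KNATM with 365.61, the flowering repressor RAV2 with 321.1, PPD2, which limits leaf growth, with 295.51 and the ubiquitin ligase gene BB with 205.6. The related flowering repressors RAP2.7 (TOE1) and SNZ had 428.95 and 134.67.

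The microRNA members made up 13 of 326 annotated microRNA genes (3.99%), beside 2.05% of protein-coding genes, and no test was made. They were 13 of the 603 members, and 31 of all 1958 target genes were microRNA genes. Among genes with a peak only 1000-2000 bp upstream they were 5 of 310, and only 2000-3000 bp upstream 3 of 311. The counts were 0 of 248 only inside, 5 of 336 only downstream and 5 of 150 in 2 or more regions. The member scores were mostly low, with a median of 81.04, and 5 of the 13 reached the median peak. MIR169c stood highest with 773.18, on chromosome 5 from 15871598 to 15871925, 760 bp from the annotated precursor and linked to no other target. MIR158a followed with 289.21, MIR159a with 268.59, MIR156c with 152.42 and MIR160a with 139.67. MIR168b had 128.75, MIR169j 81.04, MIR166b 76.82, MIR165a 68.62, MIR404 62.03, MIR391 58.44, and MIR398a and MIR319a 58.19 each. Only 4 of the 13 had a peak linked to no other target gene. The peaks counted for MIR391 and MIR398a lay inside the spans of the members AT5G60400 and NRP1. Peaks of the shared kind cannot be assigned to the microRNA gene alone. The median distance of these peaks from the annotated microRNA gene was 600 bp, whereas for the 451 protein-coding members with a peak outside the gene it was 332 bp. RefSeq microRNA genes can be annotated as the precursor without the primary transcript, so the 2 distances may start from different kinds of end.

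For some microRNA members, an established target gene of their family was also a member, a pairing noticed after the values were seen. MIR165a and MIR166b, with scores of 68.62 and 76.82, share the seed CGGACCA and repress the class of homeobox genes that includes PHB, which had 211.27. PHV (1045.14) and REV (168.86), of the same class, had scores only 1000-2000 bp upstream and were not members. MIR169c and MIR169j share the seed AGCCAAG and repress subunits of the CCAAT-binding factor such as NF-YA2, which had 189.5. MIR156c represses the SPL family, of which SPL15 had 101.69. Of 14 genes with an SPL name, 1 was a member and 4 were targets in any region. MIR159a and MIR319a have the related but different seeds TTGGATT and TGGACTG and are known to act on MYB and TCP genes, respectively. MIR160a acts on certain auxin response factor genes. Members from those families, such as MYB110 with 1063.35, TCP15 with 85.33, TCP14 with 67.22 and ARF11 with 72.68, are not among the established targets of these microRNAs.

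By annotation keywords, 72 members (11.9%, exact 95% interval 9.46 to 14.8) were transcription factors, against 11.6% of all target genes. Intervals on shares cover counting error alone and take each gene as an independent draw. The largest groups were 252 members with other functions and 147 (24.4%) whose own annotation words named no function. Genes of known function, such as CCB1 and PYL1, are among these 147. Further classes were 27 kinases or receptors, 27 genes for small or other RNAs, 26 genes of the ubiquitin pathway, 15 transporters, 15 genes of lipid or secondary metabolism and 13 of the cell wall. SUP, KNATM, GL3, RAV2, BEH3 and NF-YA2 carry no keyword of the transcription factor class and fell under other functions, so the transcription factor shares given here miss some regulators. Of the 297 members at or above the median peak, 35 (11.8%) were transcription factors, close to the 11.9% of all members. Transcription factors supplied 9 of the 21 members at or above 1000 and 25 of the 208 below 100. Their median score, 134.18, was close to the 142.94 of the members with other functions, and the ubiquitin pathway genes had 204.84.

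Leading genes in these classes show the range. In the kinase class, OST1 was followed by MAPKKK18, a kinase of a signalling cascade, with 587.47 and by AT5G07620 with 502.79. The ubiquitin class was led by the F-box genes AT3G17400 (1192.19), AT2G42730 (687.11) and AT1G74510 (646.91). The transporters were led by UNE2, annotated as a sugar porter, with 827.78, followed by the nucleotide sugar transporter genes AT5G59740 with 351.68 and UTR2 with 210.92. In the lipid class, KCR1 was followed by LTP2, a lipid transfer protein gene, with 461.91 and the carboxylesterase gene CXE12 with 393.59. In the cell wall class, AT5G21280 was followed by AT5G55180, a glycosyl hydrolase gene, with 806.07 and FLA9, an arabinogalactan protein gene, with 395.27. The RNA class included AT3G41768, an 18S ribosomal RNA gene with 588.35, which belongs to a repeated family, so that its reads cannot be assigned with certainty.

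Most proximal peaks lay outside their gene, and the interval next to it held the most. The distance was taken from the peak position to the nearest end of the RefSeq gene span, since the table used holds no strand. For 481 of the 593 linked members (81.1%) the position was outside the span, at a median of 347 bp (quartiles 142 and 593 bp). The interval from 1 to 200 bp held 169 members (28.5%), and 49 (8.26%) lay between 801 and 1000 bp. The median score was 163.7 in the nearest interval and between 128.71 and 134.67 in the 4 intervals from 201 to 1000 bp. Across the members outside the span, the rank correlation of distance and score was -0.081, given as a description only. Score and width of the peaks were correlated at 0.72, and both come from the same reads.

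For the other 112 members (18.9%) the peak position lay inside the RefSeq span, although the authors' table counted it upstream. All 112 were protein-coding, and the median depth was 83 bp from the nearest end. They included 7 of the 20 highest members, such as AP3, PI, AGL18 and KCR1. Their median score of 129.59 was close to that of the others. The deepest, 1632 bp, was at DFL2, and the farthest outside, 1126 bp, was at GTE2. The gene models behind the authors' 5′ ends were not used here, and the part that they play in this was not tested.

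**Figure D3:**
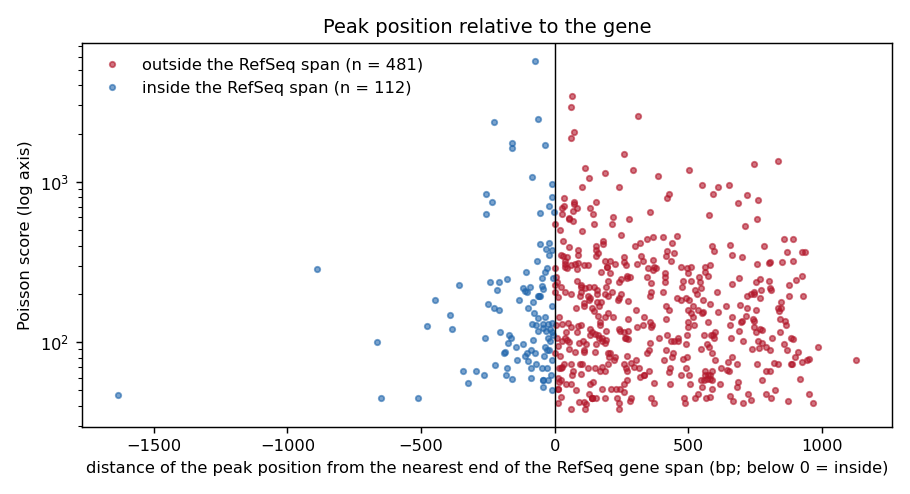
Distance of the peak position from the nearest end of the RefSeq gene span in bp (below 0 is inside the gene) against the Poisson score on a log axis, for the 593 linked members. The 481 positions outside the span (red) are densest within 200 bp, and the 112 inside it (blue) include the highest score, that of AP3.

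Most members shared their peak with another target gene, at a percentage close to that of all target genes. Of the 593 linked members, 438 (73.9%, exact 95% interval 70.1 to 77.4) shared their peak, and 155 did not. Over all linked target genes, 1405 of 1915 (73.4%) shared theirs. The interval takes genes as independent draws, although 154 of the members stand in pairs on the same peak. The partner was another member only in 76 cases, genes of other regions only in 284, and both in 78, with up to 5 genes on 1 peak. Across regions, the shared percentage was 71.3 for genes with a peak only 1000-2000 bp upstream, 81.8 at 2000-3000 bp, 58.3 inside the gene, 81.2 downstream and 65.1 with 2 or more regions. Sharing depends on how far the authors' windows reach, and a peak between close genes falls into several windows. The genes of other regions that shared a proximal peak numbered 416. Among them, the peak was downstream of 141 genes, 2000-3000 bp upstream of 133, 1000-2000 bp upstream of 104 and inside 38.

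The highest proximal peaks were among those read for neighbours too. The AP3 peak also lay within 1000 bp downstream of emb1967, and the BBX13 peak lay upstream of both AT1G28040 and AT1G28060. ATH1 shared its peak with AT4G32990, CCB1 with AT3G26700, and HEC1 with RALFL34, a small peptide gene whose start was 2000-3000 bp away. PI, AGL18, SUP, PHB and PYL2 shared theirs with no other target.

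A pair of members stood on 77 of the 516 peaks, so that 1 peak was counted within 1000 bp upstream of both genes. In 51 of these the position lay between the 2 spans, in 17 inside 1 of them, in 4 outside both on the same side, and in 5 the spans overlapped. For the 51 peaks between the spans, the gap between the genes ranged from 100 to 1697 bp with a median of 702 bp. The 77 peaks had a median score of 163.7, against 133.69 for the 439 peaks with 1 member. After MTO3 and AT3G17400, whose peak lay 502 and 294 bp from them on chromosome 3 from 5954327 to 5954761, the next was that of AT4G30490 and AT4G30500 with 955.7. AT2G46455 and AT2G46460 shared a peak of 787.8, and the invertase gene A/N-InvA and AT1G56555 one of 749.95. The F-box gene AT2G42730 and RPL16A, a ribosomal protein gene, shared one of 687.11 within a gap of 109 bp. AT5G08770 and the histone family gene AT5G08780 shared one of 633.45, and AT3G41762 and the ribosomal RNA gene AT3G41768 one of 588.35. SCR, the patterning gene of root and shoot cell layers, and AT3G54210, a ribosomal protein gene, shared one of 396.63, and the next in score was that of LCV1 and the proteasome gene RPT2b with 376.22. AT1G75060 and AT1G75070 shared one of 369.48, which also lay 1000-2000 bp upstream of BZR1, a brassinosteroid transcription factor gene.

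Transcription factor genes were more frequent among the members whose peak was linked to no other target. They made up 34 of 155 such members (21.9%, exact 95% interval 15.7 to 29.3) and 38 of 438 members with a shared peak (8.68%, 6.21 to 11.7). The same order was found in the other regions, for example 18.4% and 7.41% at 1000-2000 bp upstream and 16.1% and 6.72% downstream. Space between genes moved with this split, in part by definition, since a peak far from other genes falls into no second window. For 463 members with a peak outside the gene and no overlapping neighbour, the median distance to the next protein-coding gene on that side was 3546 bp where the peak was not shared and 851.5 bp where it was. It was 2076 bp for 57 transcription factor members and 1075 bp for 406 members of the other classes. The part of intergenic space in the difference was not tested.

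**Figure D4:**
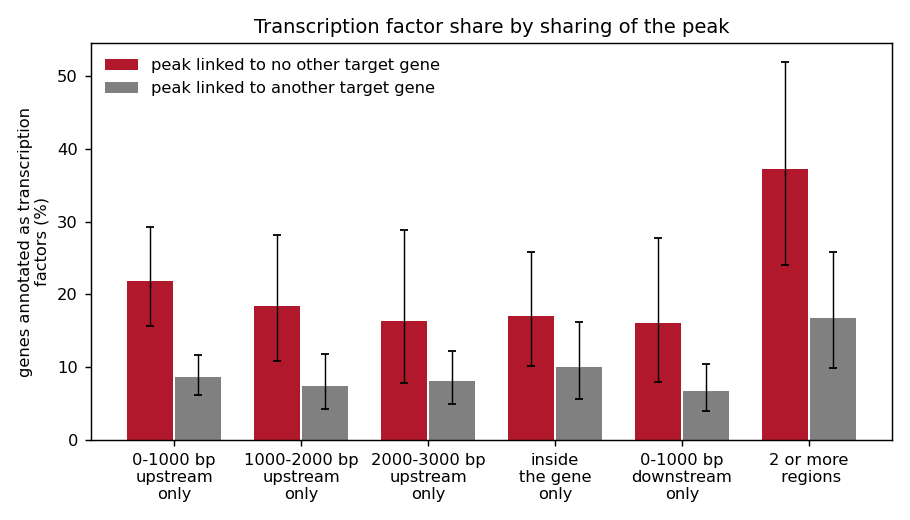
Percentage of genes annotated as transcription factors by region, for genes whose peak was linked to no other target gene (red) and to another target gene (grey); error bars are exact 95% binomial intervals, which cover counting error only. In every region the red bar is the higher one, with 21.9% against 8.68% for the proximal genes.

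A proximal score was also present in genes left out by the rule. In all, 689 target genes had a score 0-1000 bp upstream, and 86 of them had a score in another region too. That score was the highest of the gene in 40 of the 86. Of these 86 genes, 34 also had a score 2000-3000 bp upstream, 31 at 1000-2000 bp, 16 inside and 16 downstream. They included TEM1, a repressor of flowering, with a proximal score of 1113.57, 142.98 at 2000-3000 bp upstream and 56.21 inside. SOC1 (AGL20), a MADS-box promoter of flowering, had 908.49 in the proximal interval, 524.78 at 2000-3000 bp and 143.81 inside.

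The matched members lay on all 5 nuclear chromosomes, with 163 on chromosome 1, 85 on 2, 117 on 3, 89 on 4 and 139 on 5. By RefSeq type, the matched members were 563 protein-coding genes, 13 microRNA, 7 transfer RNA, 5 other non-coding RNA, 4 long non-coding RNA and 1 ribosomal RNA gene.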

How the data were processed

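ChIP-seq was measured in 2 AG-GFP and 2 negative control libraries. Per the file headers, the deposited peak list holds a Poisson score, position, start and end for each peak, and the deposited target table holds the highest score per gene and region. The authors' score and position headers are exchanged in the peak list, and the columns were read by their values. Coordinates are in TAIR10, which the submitters' processing notes name. Neither the aligner, the peak caller, its threshold nor how replicates were combined is given in the sources used here.

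A member was linked to the peak of equal score (within 0.006) whose position lay within 3000 bp of its RefSeq TAIR10.1 span. None of that table's coordinates is printed. Classes came from keywords in the authors' annotation, up to its list of similar proteins, and were refined after it was read. The linking was tested on simulated data. Python 3.11.15, pandas 2.3.3, numpy 2.4.6 and scipy 1.17.1 were used. The members and gene lists were chosen with earlier results of these data known. The text names the 20 highest and 5 lowest members, list members, the top 3 of each class with at least 10 named members, and the 10 highest peaks shared by 2 members; others were chosen after their values were seen. Promoter sequence was not analysed here.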

Additional observations from a re-analysis of the deposited data

How the results depend on the processing

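No paired analysis was possible because the files hold no value per library, and for the same reason no replicate could be left out. Of 17 alternatives, 12 kept the result within 1.5 times the main count or within its interval, and 5 moved it. Among the 12, the number of members still fell from 603 to 409 when only the nearest protein-coding gene was counted. Among the 5, the number of members was 297 at scores of at least the median peak. The percentage of members sharing a peak was 26.0 when the other gene also had to be a member, and 86.9 when any equal score on the chromosome counted as a link; 1047 of 1421 peaks share their score with another peak, so position was also required. Median peak width was 296.0 bp for peaks at or above the median score. The transcription factor percentage was 21.9 for peaks linked to no other target. Leaving out the 20 highest members (median score 129.73) and peaks inside the RefSeq span (481 members, median 139.67) was added after seeing the data. The alternatives on CArG boxes were not run, since promoter sequence was not used here.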
